A study of Mus musculus with 12 samples.

Results

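The 42 genes described here drive mitosis, the division of a cell's chromosomes, and its checkpoint. They were taken from a list of G2/M and mitosis genes by symbol, a rule that uses no measured value, although the list itself was chosen with earlier results of these data known. All 42 were found among the 55335 gene identifiers of the deposited count tables. RNA was sequenced from CT26, a mouse colorectal cancer line whose cultured cells are labelled WT, and from subcutaneous tumors that CT26 cells formed in mice. Cultured cells received DMSO or 1 µM midostaurin for 48 h. Tumors received vehicle or midostaurin at 40 mg/kg, begun on day 7 after inoculation and lasting 2 weeks. Each of the 4 groups has 3 libraries of poly(A)-selected RNA. Midostaurin is an inhibitor of several kinases, FLT3 and protein kinase C among them. All tumors derive from the 1 line, and the strain, age and sex of the mice are not in the labels. The labels do not say whether the 3 samples of a group were separate cultures or animals, so p-values measure only the spread between these samples, which may be technical.

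A dividing cell enters mitosis when the kinase Cdk1, bound to cyclin B, is switched on by the phosphatases of the Cdc25 family. Spindle microtubules then attach to chromosomes at the kinetochores, and the spindle checkpoint holds the anaphase-promoting complex (APC/C) in check until each chromosome is attached. The chromosomal passenger complex, with the kinase Aurora B, corrects faulty attachments and later takes part in cytokinesis, the splitting of the cell. Transcripts of these genes are low in G1 and reach their peak in G2 and mitosis. In their promoters, CCAAT boxes are bound by NF-Y, and a short element called CHR, with the letters TTTGAA, is bound by MuvB complexes, which hold B-Myb (Mybl2) and are joined by FoxM1 in dividing cells.

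Upstream DNA of 8 members is printed here as examples of the promoter elements named above, 6 runs that hold at least 1 of them and 2 that hold neither. Each run is the DNA directly before the gene's start in RefSeq (GRCm38.p6, the assembly also called mm10), 5′ to 3′ on the gene's strand and free of annotated exons. Capitals mark TTTGAA and CCAAT, or the same motif read on the other strand (TTCAAA and ATTGG). The run of Top2a, the gene of the topoisomerase that untangles chromosomes, lies at chr11:99024190-99024339 on the minus strand. That of Mki67, the gene of the Ki-67 protein that coats mitotic chromosomes, lies at chr7:135716380-135716529 on the minus strand. For Kif11, the gene of the motor that pushes spindle poles apart, the run lies at chr19:37376232-37376381 on the plus strand. For Ect2, the gene of an activator of the GTPase RhoA in cytokinesis, it lies at chr3:27153879-27154025 on the minus strand. Also on the minus strand lie those of the spindle protein gene Hmmr (chr11:40733438-40733587) and of cyclin B2 (Ccnb2, chr9:70421555-70421704). The run of Anln, the gene of the contractile ring protein anillin, lies at chr9:22389207-22389356 on the minus strand. That of Birc5, the gene of survivin, lies at chr11:117849087-117849236 on the plus strand.
Top2a: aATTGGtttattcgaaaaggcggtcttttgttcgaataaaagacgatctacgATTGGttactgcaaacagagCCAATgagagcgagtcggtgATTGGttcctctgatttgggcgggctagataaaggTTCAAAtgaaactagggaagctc
Mki67: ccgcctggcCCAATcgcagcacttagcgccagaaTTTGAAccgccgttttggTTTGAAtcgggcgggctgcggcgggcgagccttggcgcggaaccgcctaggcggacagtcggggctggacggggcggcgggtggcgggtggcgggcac
Kif11: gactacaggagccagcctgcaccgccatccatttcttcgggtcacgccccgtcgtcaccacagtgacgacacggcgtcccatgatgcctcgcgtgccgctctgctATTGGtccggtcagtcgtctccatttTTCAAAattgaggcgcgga
Ect2: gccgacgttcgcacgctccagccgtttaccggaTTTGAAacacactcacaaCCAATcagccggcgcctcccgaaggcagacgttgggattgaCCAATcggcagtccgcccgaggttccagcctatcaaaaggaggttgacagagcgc
Hmmr: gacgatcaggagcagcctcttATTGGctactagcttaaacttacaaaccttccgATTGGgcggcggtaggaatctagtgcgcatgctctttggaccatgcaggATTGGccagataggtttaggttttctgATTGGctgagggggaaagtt
Ccnb2: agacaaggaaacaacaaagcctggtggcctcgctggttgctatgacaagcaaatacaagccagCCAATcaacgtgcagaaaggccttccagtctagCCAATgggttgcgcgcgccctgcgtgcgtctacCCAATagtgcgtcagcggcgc
Anln: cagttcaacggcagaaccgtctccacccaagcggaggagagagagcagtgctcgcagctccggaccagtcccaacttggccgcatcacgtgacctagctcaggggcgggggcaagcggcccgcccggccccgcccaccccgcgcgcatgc
Birc5: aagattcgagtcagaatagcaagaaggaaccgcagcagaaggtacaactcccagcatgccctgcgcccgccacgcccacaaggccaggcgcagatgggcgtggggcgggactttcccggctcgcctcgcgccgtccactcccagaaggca
The runs of Top2a, Mki67, Kif11 and Ect2 hold both motifs, those of Hmmr and Ccnb2 hold CCAAT boxes alone, and those of Anln and Birc5 hold neither. The runs end before the start, and Anln, Hmmr and Ccnb2 held TTTGAA on either strand shortly after it, at bases 22, 9 and 5. Of the 17 members with an exon-free run of the full 150 bases, 4 had TTTGAA in it, 11 had CCAAT and 5 had neither. The 3 boxes of Ccnb2 follow each other at distances of 33 bases.

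Promoter windows, from 250 bases before to 50 after the start, were found in RefSeq for 35 of the 42 members. TTTGAA on either strand occurred in 25 of these 35 windows (71.4%), against 18.1% of the 27025 windows of all genes. At least 1 CCAAT occurred in 74.3% of member windows and 37.9% of all windows. At least 2 CCAAT, together with TTTGAA, occurred in 16 member windows (45.7%) and in 2.19% of all windows. Neighbouring CCAAT matches lay 30 to 35 bases apart at least once in 9 of the 19 members with 2 or more. For contrast, 24 windows were found for a list of 30 G1/S and DNA replication genes, which are induced earlier in the cycle. At least 1 CCAAT occurred in 70.8% of those windows and at least 2 in 41.7%, beside 74.3% and 54.3% of member windows, so CCAAT was common in both lists. TTTGAA occurred in 12.5% of the G1/S windows and 1 of 3 E2F motifs (TTTCGCGC, TTTGGCGC, TTTCCCGC) in 37.5%, against 2.86% of member windows and 1.91% of all windows. Matches on both strands were counted, also where they overlap, and a match is a description of the letters only.

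Levels are given as CPM, each count relative to its library's total, after TMM scaling over all 12 libraries. All members were well expressed, and the smallest count of any member in any library was 748, for Cdc25c. To compare genes, CPM was divided by the kilobases of merged annotated exons. On that scale Cdc20, the activator of the APC/C that the checkpoint restrains, had the highest level in DMSO cells (104 CPM per kb), followed by Ube2c (73.0), the ubiquitin-conjugating enzyme of the APC/C. Kif20a (57.2), Tpx2 (55.7) and Plk1 (54.6) came next, and their order was not resolved, as Kif20a alone measured 248 ± 51.7 CPM (SD, n = 3). The phosphatase gene Cdc25c was lowest, at 5.76 CPM per kb, below the kinetochore genes Nuf2 (8.08), Cenpf (8.72) and Ndc80 (8.85). Cdc20 and Ube2c were also the highest in vehicle tumors (95.7 and 81.7 CPM per kb). There Cdc25c (6.90) and Kif20b (6.95) were lowest, in an order that was not resolved.

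**Figure D1:**
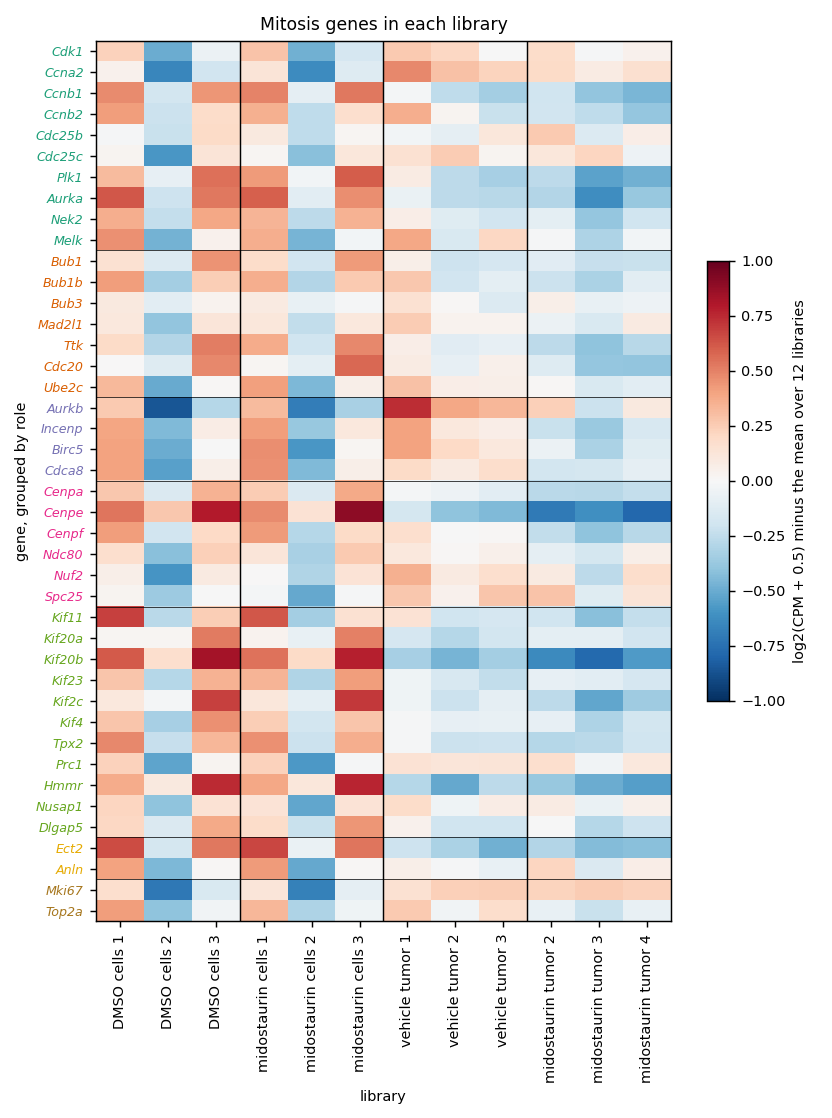
Heat map of the 42 members (rows, names coloured by role) in the 12 libraries (columns). Colour gives log2(CPM + 0.5) minus the gene's mean over the 12 libraries, and the cell libraries numbered 2 are pale or blue for nearly all members with and without midostaurin.

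Total counts ran from 34787389 to 38144039 per cell library and from 33399701 to 48109497 per tumor library. The cell libraries carry the numbers 1 to 3 in both the DMSO and the midostaurin group, and what the number stands for is not in the labels. Counts of a DMSO and a midostaurin library with the same number differed by 3.23 to 3.41 times sampling noise (the median squared difference over genes relative to that of counting error). Libraries numbered 2 and 3 differed by 7.21 to 7.36 times, and those numbered 1 differed from both by 45.6 to 47.9 times. Cells with the same number were thus nearly alike whatever the treatment. Of 7 epithelial and colon markers only Krt18 stayed above 1 CPM in all cell libraries, while Epcam and Krt19 were at 0 in all of them, so the data do not show the label of a colon carcinoma through these genes. Lymphocyte and endothelial lists summed to at most 0.598 CPM in any cell library.

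The libraries numbered 2 had the lowest mitotic transcripts in culture. For 41 of the 42 members both number 2 libraries lay below the other 4 cell libraries, a pattern found in 13.2% of all genes tested. The numbers were compared with edgeR's quasi-likelihood test on the 6 cell libraries with treatment in the model, so each number rests on 2 libraries. Number 1 exceeded number 2 in 41 members and fell below it in none, where 29.1% of all genes were called higher and 27.1% lower. Number 2 fell below number 3 in 41 members and exceeded it in none, where 6.75% of all genes were called lower and 5.19% higher. The median log2 fold change of the members was 0.61 for number 1 against number 2 and -0.57 for number 2 against number 3, beside medians over all genes of 0.00474 and 0.00116. These comparisons share libraries and are not independent of each other.

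Among the genes that start mitosis, cyclin B1 (Ccnb1, GRCm38 chr13:100778650-100786570), the partner of Cdk1, measured 199 and 202 CPM in the number 1 libraries (DMSO and midostaurin in turn). It measured 126 and 134 CPM in those numbered 2 and 194 and 207 CPM in those numbered 3. Number 2 was low with and without the drug, and numbers 1 and 3 lay close together. The log2 fold change was 0.62 ± 0.04 (SE, adjusted p = 1.69e-08) for number 1 against 2 and -0.63 ± 0.04 for number 2 against 3 (adjusted p = 6.97e-07). Plk1 (chr7:122159439-122169873), a kinase of mitotic entry and spindle assembly, measured 123 and 133 CPM in number 1, 92.9 and 96.6 in number 2 and 145 and 150.2 in number 3. Here the number 3 libraries were the highest and the 3 pairs did not overlap. All 10 members of this role, which also holds Cdk1, Ccna2, Ccnb2, Cdc25b, Cdc25c, Aurka, Nek2 and Melk, were lower in number 2 than in both other numbers.

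The spindle checkpoint and APC/C genes held the 1 member whose lower level in number 2 against number 3 did not pass the test. Bub3, which brings checkpoint proteins to kinetochores and also acts outside mitosis, measured 110.2 and 109 CPM in number 1, 95.7 and 97.5 in number 2 and 105 and 102 in number 3. Its log2 range over the 6 cell libraries, 0.20, was the smallest of the 42 members, and its log2 fold change of -0.10 ± 0.04 between numbers 2 and 3 did not pass the test (adjusted p = 0.172). The other 6 members of this role, Bub1, Bub1b, Mad2l1, Ttk, Cdc20 and Ube2c, were lower in number 2 than in number 3. Ttk, the kinase also called Mps1 that starts checkpoint signalling, had -0.75 ± 0.06 (SE, adjusted p = 4.73e-06). Cdc20 (chr4:118432901-118437352) measured 177 and 179 CPM in number 1, 161 and 165 in number 2 and 246 and 263 in number 3. Only the number 3 pair stood well above the rest, and number 1 exceeded number 2 by a log2 fold change of 0.12 ± 0.03 (adjusted p = 0.00906).

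The chromosomal passenger complex showed the largest distance between numbers 1 and 2. Aurkb (chr11:69045647-69051664), which encodes its kinase Aurora B, measured 103 and 106 CPM in number 1, 47.1 and 52.7 in number 2 and 69.9 and 68.3 in number 3. Both number 1 libraries were the highest and both number 2 libraries the lowest, and the pairs did not overlap. The log2 fold change of number 1 against number 2 was 1.07 ± 0.05 (SE, adjusted p = 3.45e-09), the largest of the 42 members. Birc5 (chr11:117849251-117855743), the gene of survivin, which targets the complex to centromeres, measured 105 and 109.6 CPM in number 1, 56.2 and 52.8 in number 2 and 79.3 and 80.6 in number 3, in the same order. Incenp, the scaffold of the complex, and Cdca8, the gene of borealin, were also called in both comparisons.

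Among kinesins, Kif20a, the motor that carries the passenger complex to the midzone in anaphase, was the member not called between numbers 1 and 2. It measured 218 and 219.9 CPM in number 1, 218 and 204 in number 2 and 308 and 305 in number 3, a log2 fold change of 0.05 ± 0.03 for number 1 against 2 (adjusted p = 0.21). Only number 3 stood apart for this gene. Kif2c, a depolymerase of microtubules at centromeres, had the largest difference between numbers 2 and 3, a log2 fold change of -0.76 ± 0.05 (adjusted p = 7.75e-07). Kif11 measured 141 and 135 CPM in number 1, 72.7 and 69.4 in number 2 and 104 and 97.6 in number 3, with number 1 highest. Of the 2 cytokinesis genes, Anln, the gene of the ring protein anillin, differed by 0.89 ± 0.03 between numbers 1 and 2 (adjusted p = 6.21e-11). Mki67 measured 264 and 255 CPM in number 1, 143 and 147 in number 2 and 211 and 220.2 in number 3, with number 1 again the highest. Top2a showed the same order, with 409 and 385 CPM in number 1, 231 and 247 in number 2 and 297 and 296 in number 3.

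**Figure D2:**
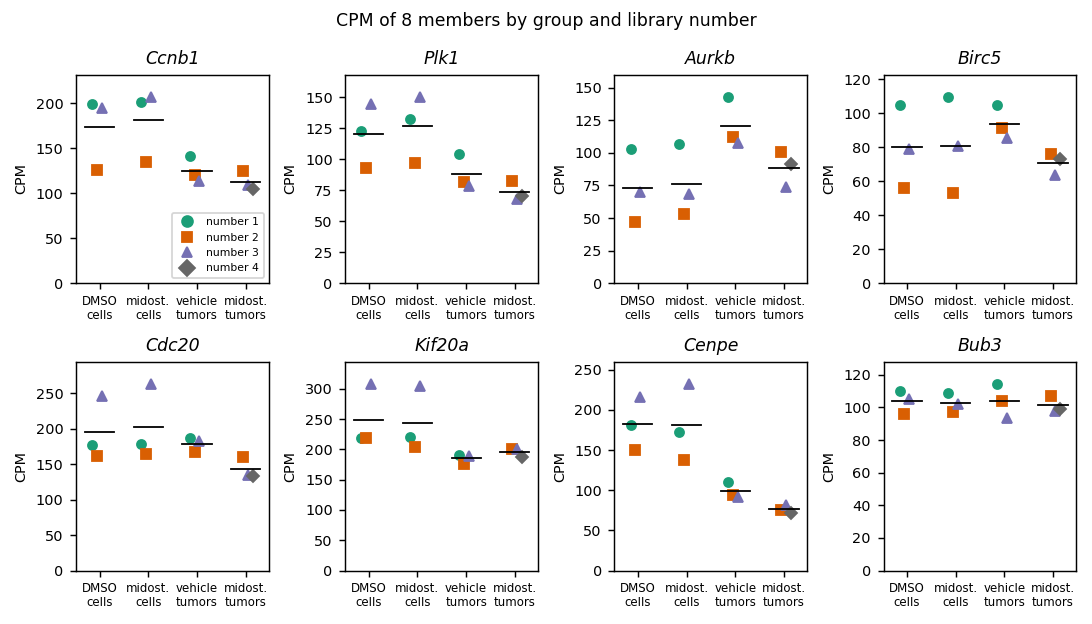
CPM of 8 members (y axis from 0) in the 4 groups, with 1 point per library, symbols for the library number and lines for group means. In cells the DMSO and midostaurin points of a number sit at nearly the same height, with number 2 lowest for Ccnb1, Plk1, Aurkb, Birc5 and Cenpe.

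Numbers 1 and 3 had nearly the same median over the members (a log2 fold change of 0.023, beside -0.00384 for all genes) but differed gene by gene. Such differences were common among all genes, as 8205 of the 14538 genes tested were called in this comparison. In number 1, 18 members were higher and 10 lower than in number 3, with 14 not called. Of all genes, 28.7% were called higher and 27.7% lower, so the 10 lower members were a smaller share than that of all genes. All 4 passenger complex genes, both cytokinesis genes, and Mki67 and Top2a were among the higher. Of 11 kinesins and spindle genes, 3 were higher (Kif11, Tpx2 and Prc1) and 5 lower (Kif2c, Kif20a, Hmmr, Kif20b and Dlgap5). Of 7 checkpoint and APC/C genes, 2 were higher (Ube2c and Bub1b) and 3 lower (Cdc20, Bub1 and Ttk). The Cdk1, cyclin and kinase group had 4 higher (Cdk1, Ccna2, Ccnb2 and Melk) and 1 lower (Plk1), and the 6 kinetochore genes 1 higher (Cenpf) and 1 lower (Cenpe). These counts by role rest on few genes each, and differences between roles were not tested.

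The widest of these differences ran from -0.59 ± 0.05 (SE) for Kif2c to 0.60 ± 0.05 for Aurkb on the log2 scale (adjusted p = 2.42e-07 and 7.74e-07). Cdc20 followed Kif2c on the lower side at -0.52 ± 0.03, and Kif20a at -0.49 ± 0.03. Cenpe (chr3:135212537-135273611), a kinesin that moves chromosomes to the spindle equator, measured 181 and 173 CPM in number 1, 149.8 and 137 in number 2 and 216 and 232 in number 3. Its pairs did not overlap and number 3 was the highest. On the higher side Kif11 had 0.45 ± 0.04, Birc5 0.42 ± 0.05 and Top2a 0.42 ± 0.04. Cyclin B1 was among the genes with no call, with both pairs at nearly the same CPM.

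**Figure D3:**
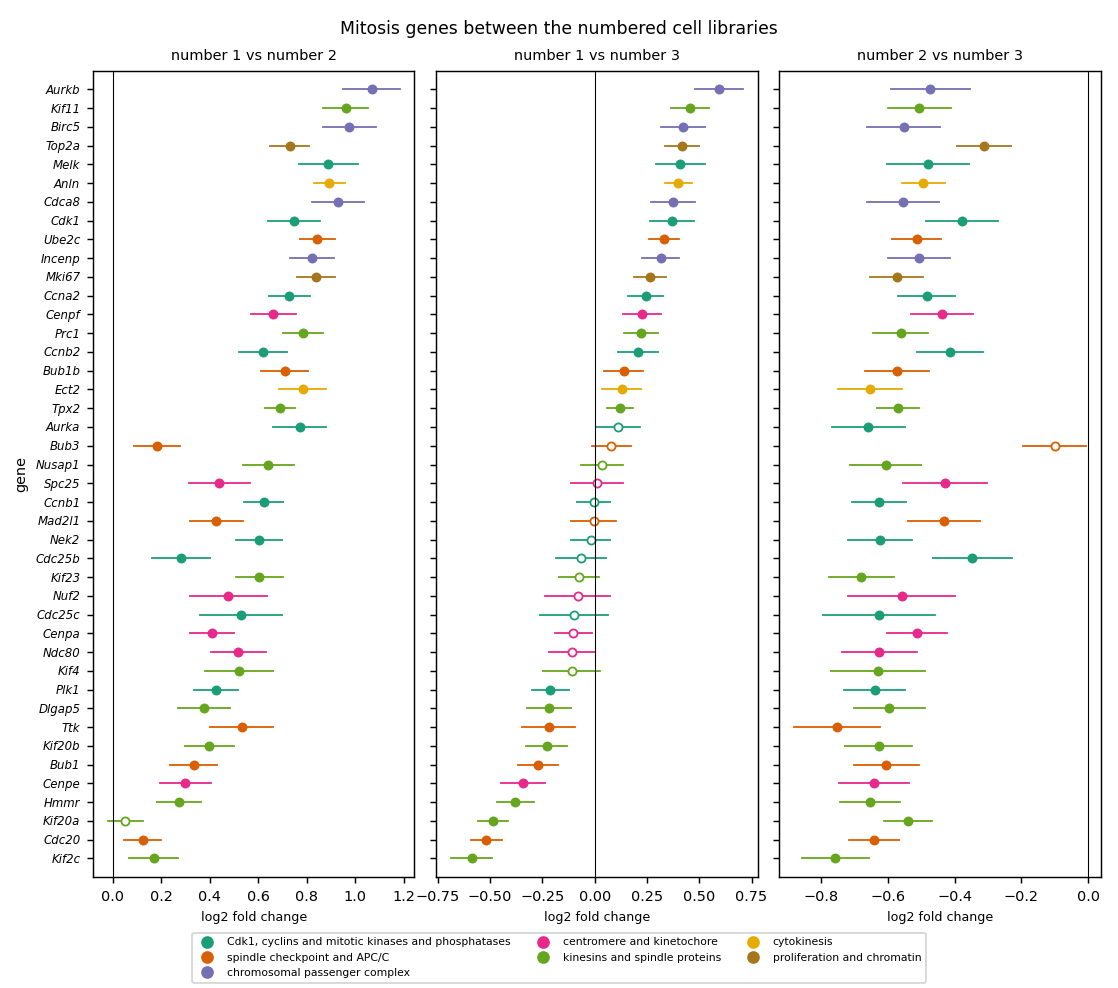
Log2 fold changes of the 42 members between the numbered cell libraries, with 95% intervals, coloured by role and ordered by number 1 against number 3. Filled points passed the test, and the middle panel runs from Kif2c at -0.59 to Aurkb at 0.60, while the outer panels lie almost wholly on 1 side of 0.

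Other mitotic genes, taken from separate lists, were also lower in number 2 than in number 3. Of 26 other spindle and cytokinesis genes 25 were lower in number 2, Cep55, a gene of the final cut in cytokinesis, by -0.76 ± 0.04 (SE). All 8 condensin genes were lower, as were 21 of 31 other kinetochore genes and 13 of 25 other APC/C, cohesin and separase genes, with none higher. Of all genes tested, 6.75% were called lower in this comparison and 5.19% higher. The 30 G1/S and DNA replication genes were lower in 18 cases, with a median of -0.22, and 1, the cyclin D1 gene Ccnd1, was higher (0.15 ± 0.02, adjusted p = 0.000383). Between numbers 1 and 3, 29 of these 30 genes were higher in number 1, with a median of 0.50. Of all genes, 28.7% were called higher there and 27.7% lower. Mcm2, a subunit of the replicative helicase, measured 239.6 and 239 CPM in number 1, 103 and 111 in number 2 and 119 and 116 in number 3. The number 1 pair stood far above the other 4 libraries for this gene. In the same comparison of numbers 1 and 3 the other spindle and cytokinesis genes had 3 higher and 12 lower. Among the lower was Gtse1, a microtubule-bound regulator of p53, at -0.60 ± 0.05. The other kinetochore genes had 19 higher and 4 lower. The 3 higher and the 4 lower were smaller shares than those of all genes.

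Transcripts of some regulators of these genes also differed by number. Of 26 regulators, 17 were higher and 4 lower in number 1 than in number 2, where 29.1% of all genes were higher and 27.1% lower. Against number 3, 9 were higher and 6 lower in number 1, near the 28.7% and 27.7% of all genes. Foxm1 measured 354 and 365 CPM in number 1, 141 and 150.3 in number 2 and 199 and 205 in number 3. Mybl2 measured 60.2 and 60.4 CPM in number 1, 23.9 and 21.4 in number 2 and 29.0 and 24.6 in number 3. Number 1 was highest for both, and Foxm1 was lower in number 2 than in number 3 (-0.47 ± 0.03, adjusted p = 1.34e-06), while Mybl2 did not pass (-0.24 ± 0.08, adjusted p = 0.0601). Mastl, the kinase that restrains the phosphatase opposing Cdk1, was lower in number 1 than in number 3 (-0.62 ± 0.05, adjusted p = 5.16e-07). The Cdk inhibitor gene Cdkn1a was lower in number 1 than in number 2 (-0.22 ± 0.03) and than in number 3 (-0.24 ± 0.03). The 4 Cdk inhibitor genes tested in cells did not share 1 direction between numbers 1 and 2. There 1 was called higher and 1 lower, with log2 fold changes up to 0.49, where 29.1% of all genes were higher and 27.1% lower. Against number 3, 0 were higher and 2 lower, beside 28.7% and 27.7% of all genes. Of the 26 regulators 12 were lower and none higher in number 2 against number 3, as were 2 of the 4 Cdk inhibitor genes tested in cells. Of all genes, 6.75% were called lower in that comparison and 5.19% higher.

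Other values moved with the number in culture. The summed leukocyte and macrophage markers, mostly Cd14 and Cd68, were 25.5 and 27.6 CPM in number 1 and 145 to 167 CPM in numbers 2 and 3, while Adgre1, C1qa and C1qc, which define macrophages, were at 0 in all 6. Fibroblast markers, mostly collagen genes, summed to 1584 and 1602 CPM in number 1, 1033 and 1040.2 in number 2 and 842 and 843 in number 3. Mitochondrially encoded transcripts made up 4.68% and 4.72% of counts in number 1 and 6.02% to 6.23% in the others. Their part in the differences between numbers was not tested.

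No change of the mitotic genes with midostaurin was detected in cultured cells. None of the 42 members passed the test against DMSO, and none had an unadjusted p under 0.05. Among all genes none (0%) was called by edgeR, 0.516% had an unadjusted p under 0.05, and DESeq2 and limma-voom called 2 genes each. The members' log2 fold changes ran from -0.073 (Kif11) to 0.076 (Ttk), with 20 above and 22 below 0 and a median of -0.00265, beside 0.00254 for all genes. Ccnb1 measured 199, 126 and 194 CPM in DMSO cells 1, 2 and 3 and 202, 134 and 207 CPM in midostaurin cells 1, 2 and 3. Aurkb measured 103, 47.1 and 69.9 CPM in DMSO cells and 106, 52.7 and 68.3 CPM in midostaurin cells. The groups overlapped for every member, where 1.33% of all genes lay higher and 1.15% lower without overlap, and the spread followed the library number.

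Because same-numbered libraries were alike, the number was also fitted as a block, which left no member called and 3 with an unadjusted p under 0.05, against 4.33% of all genes. In that fit the 95% intervals of all 42 members lay between -0.17 and 0.22 on the log2 scale, against -0.86 and 0.94 without the block. The log2 ratio of the midostaurin to the DMSO library of the same number was at most 0.293 in size over all members and numbers, with a median size of 0.0463. Members of the passenger complex were all above 0 in the fit without the block, with a median of 0.040. The 30 G1/S genes had a median of 0.0080 and none was called.

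In tumors the mitotic genes leaned lower with midostaurin, and no single member passed the test. Among all genes 0.0124% were called lower and 0.0311% higher. Of the 42 members 37 had a log2 fold change below 0, against 52.1% of all genes, and the median was -0.16 beside -0.014 for all genes. Unadjusted p-values under 0.05 on the lower side were found for 12 members, against 9.43% of all genes. The 3 midostaurin tumors lay below the 3 vehicle tumors without overlap for 15 members, against 13.6% of all genes, and above them for none, against 13.5%. In bulk tumor RNA fewer cancer cells, fewer dividing cells and less RNA per cell cannot be told apart.

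The chromosomal passenger complex lay lowest as a group, with all 4 genes below vehicle without overlap and a median of -0.42. Incenp (chr19:9872296-9899551) measured 146, 119 and 116 CPM in vehicle tumors 1, 2 and 3 and 94.8, 85.3 and 98.8 CPM in midostaurin tumors 2, 3 and 4, as the tumor columns are numbered. Its log2 fold change was -0.44 ± 0.11 (SE, adjusted p = 0.118). Birc5 measured 105, 91.2 and 85.6 CPM in vehicle tumors and 76.3, 63.6 and 73.1 CPM with midostaurin, a log2 fold change of -0.40 ± 0.11 (adjusted p = 0.129). The treated tumors were the lower in both genes, with midostaurin tumor 3 the lowest. Aurkb measured 143, 112 and 107 CPM and 101, 73.4 and 91.5 CPM, a log2 fold change of -0.44 ± 0.16 (adjusted p = 0.195). Cdca8 had 69.9, 65.1 and 69.1 CPM and 53.8, 54.1 and 57.3 CPM, a log2 fold change of -0.30 ± 0.07 (adjusted p = 0.109). For Aurkb the gap between the groups was small, since vehicle tumor 3 and midostaurin tumor 2 lay close together.

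Kinetochore genes were below 0 in 6 of 6 cases. Cenpf (chr1:189640606-189688086), a large protein of the outer kinetochore, had the smallest adjusted p of the members, at 0.108. It measured 135, 119 and 121 CPM in vehicle and 101, 90.8 and 98.8 CPM in midostaurin tumors, a log2 fold change of -0.36 ± 0.09 (SE). Cenpe measured 110.2, 94.2 and 91.7 CPM and 75.8, 81.3 and 72.0 CPM, a log2 fold change of -0.36 ± 0.09 (adjusted p = 0.119). Neither gene overlapped between the groups. The checkpoint and APC/C genes were below 0 in 7 of 7 cases, Cdc20 at -0.31 ± 0.10 with 187, 167 and 183 CPM in vehicle and 161, 135 and 134 CPM in midostaurin tumors. Ttk had -0.27 ± 0.09. Bub3 lay nearest to 0 of this role, with 114, 104 and 93.3 CPM in vehicle and 107, 97.8 and 98.9 CPM in midostaurin tumors. The Cdk1, cyclin and kinase group was below 0 in 9 of 10 cases, none with an unadjusted p under 0.05. Ccnb1 overlapped between the groups, with 141, 119.8 and 113 CPM in vehicle and 125, 109 and 104 CPM in midostaurin tumors.

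The 5 members above 0 were Kif20a, Cdc25b, Anln, Kif23 and Mki67. Mki67, widely used to mark dividing cells, measured 261, 277 and 278 CPM in vehicle and 274, 281 and 275 CPM in midostaurin tumors, and the groups overlapped. Its 95% interval ran from -0.14 to 0.20 on the log2 scale. Kif20a measured 191, 176 and 189 and 200.2, 201 and 188 CPM, also with overlap. Top2a, by contrast, measured 367, 299 and 346 CPM in vehicle and 289.7, 261 and 290.4 CPM in midostaurin tumors, all treated tumors lying below all vehicle tumors.

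**Figure D4:**
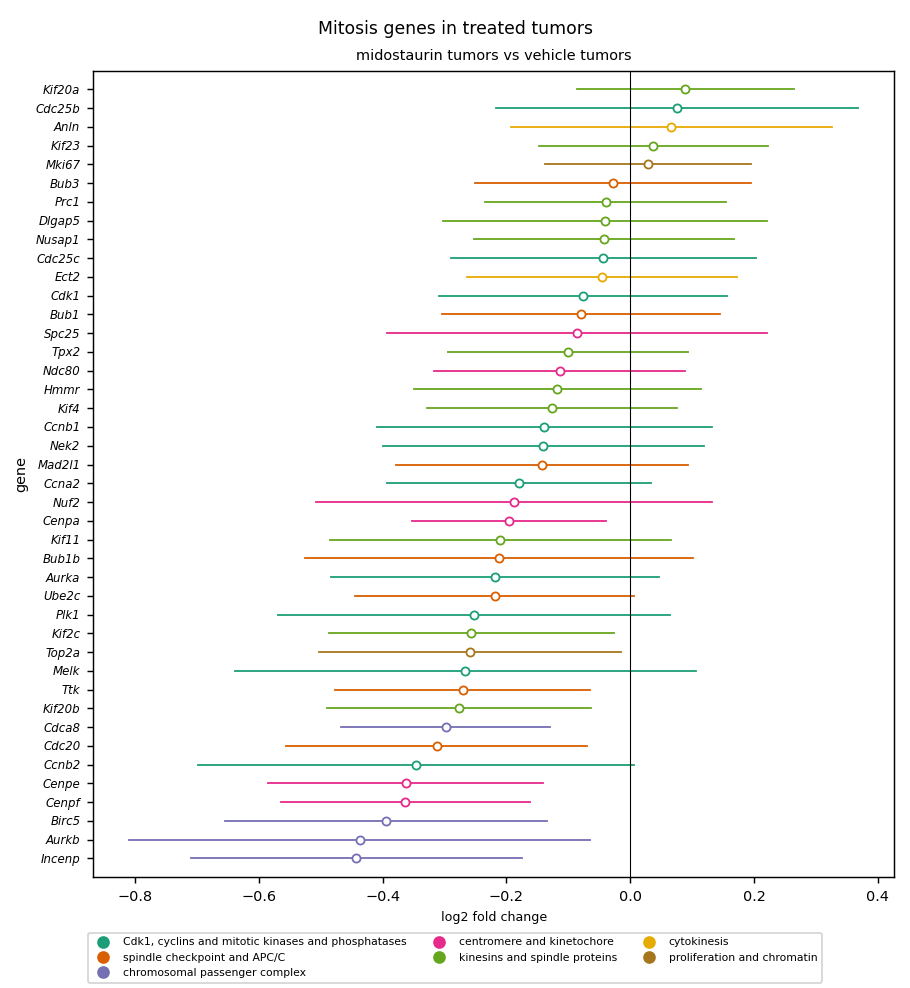
Log2 fold changes of the 42 members in midostaurin against vehicle tumors, with 95% intervals, coloured by role. All points are open because none passed the test, and the passenger complex genes Incenp, Aurkb and Birc5 lie furthest below 0.

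DESeq2, an alternative to edgeR, called 5 members lower in tumors, namely Cenpf, Incenp, Cdca8, Cenpe and Birc5, where it called 4.13% of all genes lower and 1447 genes in either direction. With edgeR no member was called after leaving out any 1 tumor, and the median then ran from -0.22 to -0.083. Some other lists leaned the same way without a call. Of 30 G1/S genes 28 were below 0, with a median of -0.28, of 31 other kinetochore genes 28, and of 26 other spindle and cytokinesis genes 22. Condensin genes (5 of 8 below 0, median -0.029), other APC/C, cohesin and separase genes (15 of 25, median -0.055) and regulators (16 of 26, median -0.069) lay nearer to all genes. Among the regulators, Mybl2 measured 55.0, 45.1 and 47.1 CPM in vehicle and 37.1, 34.5 and 36.1 CPM in midostaurin tumors (-0.44 ± 0.10, adjusted p = 0.097). E2f8, a repressor of E2F targets, had -0.68 ± 0.16 (adjusted p = 0.109). Rb1, which restrains E2F factors, measured 25.1, 23.8 and 28.4 and 36.7, 41.9 and 37.3 CPM (0.59 ± 0.10, adjusted p = 0.0841), and was the higher in all 3 treated tumors.

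Summed markers of cell types varied beside these values. The 7 epithelial and colon markers summed to 7.51 to 18.4 CPM in vehicle and 8.80 to 15.6 CPM in midostaurin tumors, and the groups overlapped. The 11 leukocyte and macrophage markers, all above 1 CPM in every tumor, summed to 1511 to 2582 CPM in vehicle and 659.7 to 1732 CPM in midostaurin tumors. The neutrophil markers summed to 12.9 to 26.2 CPM in vehicle tumors and to 28.7, 660.0 and 17.6 CPM in midostaurin tumors 2, 3 and 4. The mean log2 level of the members, centred over the 12 libraries, was lowest of all tumors in midostaurin tumor 3 (-0.26). It was -0.093 and -0.16 in midostaurin tumors 2 and 4, and 0.12, -0.066 and -0.052 in vehicle tumors 1, 2 and 3. Midostaurin tumor 2 thus lay close to vehicle tumors 2 and 3, and vehicle tumor 1 was the highest. Endothelial markers summed to 74.7 to 148.7 CPM and 64.7 to 119.6 CPM, and lymphocyte markers to 25.2 to 33.1 CPM and 20.0 to 32.9 CPM. Fibroblast markers summed to 1773 to 4524 CPM and 1622 to 2712 CPM. The fibroblast list also summed to 842 to 1602 CPM in cultured cells, so it does not mark other cell types alone. The leukocyte and macrophage list summed to at most 167 CPM there. Mitochondrially encoded transcripts made up 2.16% to 2.88% of counts in vehicle and 1.08% to 2.48% in midostaurin tumors. Their part in the lean of the mitotic genes was not tested.

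Whether members responded differently in tumors and in cells was tested as an interaction over all 12 libraries. No member passed and none had an unadjusted p under 0.05, where 0.00589% of all genes were called and 6.08% had such a p. The median over members was -0.20, beside -0.016 for all genes. Aurkb had the largest difference, -0.50 ± 0.42 (SE, adjusted p = 0.939). With the number as a block in the cells, 12 members had an unadjusted p under 0.05, against 14.7% of all genes, and none passed. No member's response was thus shown to differ between tumors and cells.

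Tumors and cells were also set against each other within each treatment. The counts come from separate tables, so growth in the animal, the other cells of a tumor and the table cannot be told apart. In vehicle tumors against DMSO cells 4 members were lower and 1 higher, where 19.7% of all genes were called lower and 24.5% higher. In midostaurin tumors against midostaurin cells 10 were lower and none higher, where 19.1% of all genes were lower and 24.2% higher. The median over members was -0.090 in the first and -0.31 in the second, beside 0.043 and 0.032 for all genes. The members' counts stand near or below these shares.

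Kif20b, Cenpe, Hmmr and Ect2 were lower in both comparisons, which share no library, although their cell libraries are alike by number. These 4 are 100% of the members called lower in the first and 40.0% of those in the second. Both comparisons come from 1 fit of all 12 libraries, and with cell libraries alike by number they are not independent. The share of all genes called lower in both was not computed, so whether this overlap is particular to the members is not known. Kif20b (chr19:34922361-34975745), a motor of late cytokinesis, measured 96.6, 70.7 and 112 CPM in DMSO cells and 49.8, 45.6 and 49.6 CPM in vehicle tumors. With midostaurin it measured 91.9, 72.1 and 108 CPM in cells and 40.3, 36.5 and 42.4 CPM in tumors. Every tumor lay below every cell library, and the log2 fold changes were -0.95 ± 0.18 (SE, adjusted p = 0.00168) and -1.19 ± 0.18 (adjusted p = 0.000451). Cenpe, whose cell values are given above by number, had -0.88 ± 0.19 and -1.24 ± 0.19, and did not overlap either. Hmmr (chr11:40701395-40733422) measured 112, 92.8 and 146 CPM in DMSO cells and 70.9, 60.5 and 72.3 CPM in vehicle tumors (-0.79 ± 0.19, adjusted p = 0.00622). Ect2 (chr3:27097222-27153878) measured 149, 83.8 and 137 CPM in DMSO cells and 81.8, 75.9 and 67.7 CPM in vehicle tumors (-0.71 ± 0.22, adjusted p = 0.0241). All vehicle tumors lay below all DMSO cells for both genes.

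In midostaurin samples the members called beside these were Plk1 (-0.78), Aurka (-0.78), Ccnb1 (-0.68), Kif2c (-0.66), Ttk (-0.57) and Cenpa (-0.45), with adjusted p from 0.00878 to 0.0475. Aurka, the kinase of spindle poles, measured 118, 72.0 and 107 CPM in midostaurin cells and 63.2, 50.3 and 59.4 CPM in midostaurin tumors. Number 2 of the cells stood close to the tumors for this gene. Ccna2, which encodes cyclin A2 of S and G2 phase, was the 1 member higher in vehicle tumors than in DMSO cells, with 169, 103 and 143 CPM in cells and 228, 199.6 and 190.0 CPM in tumors (0.57 ± 0.20, adjusted p = 0.0389). All vehicle tumors lay above all DMSO cells, and the call was lost on leaving out any 1 of 5 libraries, DMSO cells 1 being the exception, and with scaling by library totals. Aurkb measured 103, 47.1 and 69.9 CPM in DMSO cells and 143, 112 and 107 CPM in vehicle tumors, a log2 fold change of 0.72 ± 0.30 that did not pass (adjusted p = 0.075).

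**Figure D5:**
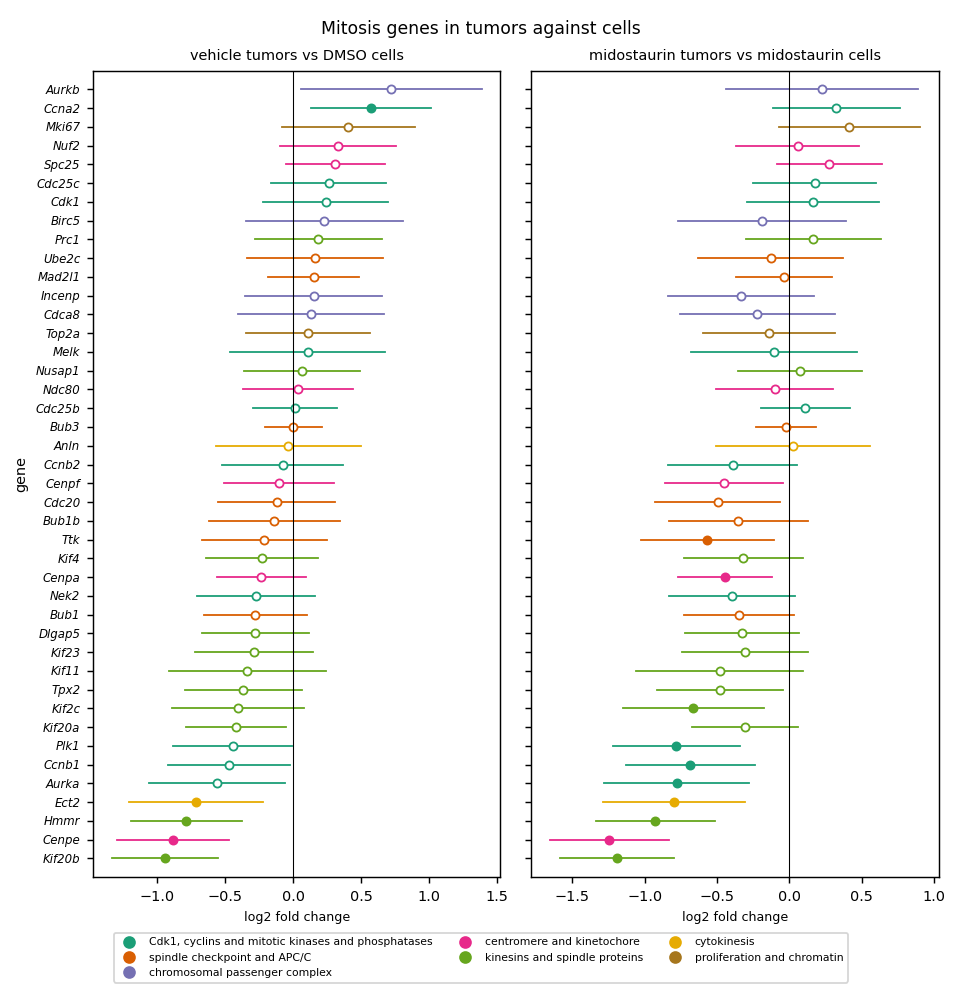
Log2 fold changes of the 42 members in tumors against cells, without drug (left) and with midostaurin (right), with 95% intervals and coloured by role. Filled points passed the test, and Kif20b, Cenpe, Hmmr and Ect2 are filled below 0 in both panels.

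These counts depended on which cell libraries stood for culture. Without both number 2 cell libraries 15 members were lower and 1 higher between vehicle tumors and DMSO cells, where 13.6% of all genes were called lower and 19% higher. With midostaurin 22 were lower, where 14.1% of all genes were. Without both number 1 libraries 4 members were lower and 5 higher in vehicle tumors, where 22.3% of all genes were lower and 31% higher, so the members' counts stood below these shares. With midostaurin 9 were then lower and 4 higher, where 21.6% and 30.2% of all genes were. Without number 3 there were 3 without drug and 5 with midostaurin, all lower, where 12.4% of all genes were called lower in each comparison. Aurkb, Ccna2, Mki67 and Cdk1 were the 4 higher in both comparisons without number 1. Kif20b, Cenpe and Hmmr were called lower in both comparisons after leaving out any 1 library of the groups compared. Ect2 lost its call between vehicle tumors and DMSO cells without DMSO cells 1 or 3 or vehicle tumor 2 or 3. With midostaurin, Plk1 and Ect2 kept theirs throughout, while Aurka, Ccnb1, Kif2c, Ttk and Cenpa each lost it without at least 1 library.

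Across the 6 tumors the members spread less than across the 6 cell libraries, for 40 of 42 genes. The median log2 range was 0.41 in tumors and 0.73 in cells. The same was not computed for all genes, so the smaller spread is not known to be particular to the members. In cells, both number 2 libraries lay below the other 4 for 41 members. Of other genes of division, Anapc1, the scaffold subunit of the APC/C, was lower in vehicle tumors than in DMSO cells (-0.82 ± 0.10, adjusted p = 0.000142), as was the kinetochore gene Zwint (-0.76 ± 0.10, adjusted p = 0.000225). Gtse1 was lower too (-0.73 ± 0.19, adjusted p = 0.00961), 1 of 6 lower among 26 other spindle and cytokinesis genes, a share near that of all genes called lower in this comparison. Higher in vehicle tumors were Ccnd1 (1.19 ± 0.17), E2f8 (1.14 ± 0.19) and Wee1 (0.80 ± 0.16), the kinase that holds Cdk1 inactive. Of the 30 G1/S genes 27 were above 0, with a median of 0.32, 3 called higher and 1 lower, fewer than the 24.5% and 19.7% of all genes.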

How the data were processed

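RNA from 6 libraries of CT26 cells and 6 of CT26 tumors was measured as deposited whole-number counts per Ensembl gene. Per the submitters' processing notes, the authors' tools were Bowtie2 2.3.4, RSEM and FastQC 0.11.2, and the build was mm10. The RSEM version, annotation and strand setting are not given in the sources used here. RSEM shares reads among similar or overlapping genes by an estimate, and a rounding of such estimates cannot be told from counts. Symbols matched 99.7% of identifiers, and 181 stayed without one. Positions and exon lengths come from GENCODE vM21 (GRCm38). Treated tumors are numbered 1 to 3 in the labels and 2 to 4 in the tumor count columns, so column 4 entered the midostaurin group without a label of its own.

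Counts were tested with edgeR 4.0.16 (R 4.3.3) after filterByExpr and TMM scaling. The quasi-likelihood F-test was used, with Benjamini-Hochberg adjustment over all genes at 0.05. Cells and tumors were fitted apart for the drug, the numbers in the 6 cell libraries, and comparisons of tumors with cells in 1 fit of all 12. Alternatives were RLE scaling, library totals, no low-count filter, DESeq2 1.42.0, limma-voom (limma 3.58.1), each library left out and the replicate number as a block. The edgeR fit was tested on simulated counts for some of the comparisons, and the other steps were not. Same-numbered cell libraries deviated together from their groups (correlations across genes of 0.90, 0.72 and 0.70), so the number pairs cell libraries, a pairing read from the data. In tumors these correlations were 0.15 and -0.19. The members, the other gene lists, the markers and the rule for naming other genes were chosen with earlier results of these data known. That rule allows the 4 genes of a list with the smallest p and always Foxm1, Mybl2, Lin9, Cdkn1a, Cdkn1b, Trp53, Wee1 and Pttg1. RefSeq windows were searched for exact motifs.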

Additional observations from a re-analysis of the deposited data

How the results depend on the processing

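With edgeR, no member was called for midostaurin in cells, in tumors or for their difference under any other scaling or filter, with limma-voom or without any 1 library. DESeq2 called 5 members lower in tumors, and the cause was not tested. Over all genes it called 1447 in tumors, against 7 with edgeR, 16 with limma-voom and 0 without the low-count filter, and 99 for the difference, against 1 with edgeR.

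The replicate number as a block left 0 members called in cells (8 genes in all), 0 in tumors and 0 for the difference (16 genes in all), where the pairing holds for the cells alone. In tumors against cells, where the numbers are not known to pair anything, the block gave 7 members called between vehicle tumors and DMSO cells, against 5. It called 8134 genes in all, against 7501. It was not fitted for midostaurin tumors against midostaurin cells.

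Members called between vehicle tumors and DMSO cells ranged from 3 to 9 without 1 library, against 5 in the main fit, which called 7501 genes in all. Leaving out both cell libraries of a number, chosen after seeing the data, gave 9 for number 1, 16 for number 2 and 3 for number 3. Genes called in all were then 9314, 5691 and 5628. With midostaurin the range was 5 to 17, against 10 in the main fit, which called 7354 genes in all. The counts were 13 without number 1, 22 without number 2 and 5 without number 3, with 9043, 5879 and 5736 genes in all. The median of the members between vehicle tumors and DMSO cells ran from -0.24 to 0.034 without 1 library.

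Between the numbered cell libraries 39 to 41 members (1 against 2), 24 to 29 (1 against 3) and 41 (2 against 3) were called without 1 library. The main fits called 8167, 8205 and 1736 genes in all in these comparisons. Without the low-count filter 32 were called for number 2 against 3, with 252 genes in all against 1736. Medians of 1 against 2 and of 2 against 3 moved by little relative to their size. That of 1 against 3, 0.023 in the main fit, stood near 0 and depended on the scaling. Library totals gave 0.64, 0.060 and -0.55 for 1 against 2, 1 against 3 and 2 against 3, and leaving out 1 library gave 0.60 to 0.62, 0.022 to 0.053 and -0.57 to -0.55. With 2 libraries per number and 3 per group, the precision is set by the number of libraries, not by depth.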
